A study of Mus musculus with 8 samples.

Results

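The Bardet-Biedl syndrome (BBS) genes that encode the 3 chaperonin-like proteins, Mkks, Bbs10 and Bbs12, and 7 subunits of the BBSome, Bbs1, Bbs2, Bbs4, Bbs5, Bbs7, Bbs9 and Ttc8, were followed in mouse embryonic stem cells after knockdown of a subunit of the chaperonin CCT. The 10 genes were chosen by what their proteins do, though earlier results of these data were known at the time. All 10 were among the 19896 gene IDs listed in both deposited tables. The cells were E14, a mouse embryonic stem cell line, and poly(A) RNA was sequenced in 8 libraries. In Cct7 KD (2 libraries) cells carried a pLKO-Tet-on vector with a short hairpin RNA against Cct7, and Cct7 KD Ctr (2 libraries) carried the vector without a hairpin. In the same way, Cct5 KD (2 libraries) carried a hairpin against Cct5, and Cct5 KD Ctr (2 libraries) carried the vector without a hairpin. All 4 groups, controls included, grew for 14 days under puromycin selection (0.5 µg/ml), then for 2 days with the inducer doxycycline (2 µg/ml), mainly in serum with LIF. Positive clones were picked for each line, and the labels do not say how many clones make up a line. The study asked whether CCT5 or CCT7 holds back the passage of these cells from pluripotency to totipotency.

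The BBSome is a protein coat complex that carries membrane receptors into and out of the primary cilium, the sensory projection through which cells read Hedgehog and other signals. The 3 chaperonin-like proteins are distant relatives of the CCT subunits. They bind to CCT itself in a complex that helps a core of BBS2, BBS7 and BBS9 to assemble, onto which the other BBSome subunits are added. Mutations in any of these genes cause Bardet-Biedl syndrome, a human ciliopathy.

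The sequence upstream of the genes is shown for 5 of the 10. These are Ttc8, which changed most, Bbs1, Bbs7 and Bbs4, which hold an X-box, and Mkks, which holds a cAMP response element. Each is the RefSeq promoter in GRCm38.p6, 250 bases before to 50 bases after the annotated start. RefSeq held such a promoter for 10 of the 10 genes. The X-box, searched as GTNNCC and GGNNAC with any 2 bases between them, is the motif known to be bound by RFX transcription factors at ciliary genes. The cAMP response element is TGACGTCA, and both motifs read the same on either strand. Matches to these motifs are in capitals. The promoters lie at chr12:98920324-98920623 (Ttc8, plus strand), chr19:4906578-4906877 (Bbs1, minus strand), chr3:36613340-36613639 (Bbs7, minus strand), chr9:59353459-59353758 (Bbs4, minus strand) and chr2:136891357-136891656 (Mkks, minus strand).
Ttc8: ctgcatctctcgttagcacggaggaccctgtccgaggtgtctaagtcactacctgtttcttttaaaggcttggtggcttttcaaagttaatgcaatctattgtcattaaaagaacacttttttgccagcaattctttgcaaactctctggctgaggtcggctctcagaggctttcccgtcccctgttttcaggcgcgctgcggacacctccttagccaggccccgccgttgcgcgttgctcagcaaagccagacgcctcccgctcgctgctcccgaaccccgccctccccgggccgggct
Bbs1: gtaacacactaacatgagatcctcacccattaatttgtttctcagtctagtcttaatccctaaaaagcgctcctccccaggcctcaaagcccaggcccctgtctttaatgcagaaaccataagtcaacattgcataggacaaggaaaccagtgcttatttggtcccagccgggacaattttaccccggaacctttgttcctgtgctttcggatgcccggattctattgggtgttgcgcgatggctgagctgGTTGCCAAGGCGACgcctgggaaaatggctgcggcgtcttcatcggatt
Bbs7: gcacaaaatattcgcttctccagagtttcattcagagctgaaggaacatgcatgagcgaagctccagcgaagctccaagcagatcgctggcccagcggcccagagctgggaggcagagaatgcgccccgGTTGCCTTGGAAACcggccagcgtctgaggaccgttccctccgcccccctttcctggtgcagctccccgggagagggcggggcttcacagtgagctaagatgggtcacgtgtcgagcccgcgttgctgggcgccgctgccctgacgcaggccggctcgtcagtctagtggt
Bbs4: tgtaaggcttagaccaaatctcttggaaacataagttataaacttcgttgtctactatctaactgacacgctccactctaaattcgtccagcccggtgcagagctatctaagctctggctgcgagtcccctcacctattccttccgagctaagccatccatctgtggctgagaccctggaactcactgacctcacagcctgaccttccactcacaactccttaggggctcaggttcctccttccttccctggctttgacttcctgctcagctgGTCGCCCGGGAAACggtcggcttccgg
Mkks: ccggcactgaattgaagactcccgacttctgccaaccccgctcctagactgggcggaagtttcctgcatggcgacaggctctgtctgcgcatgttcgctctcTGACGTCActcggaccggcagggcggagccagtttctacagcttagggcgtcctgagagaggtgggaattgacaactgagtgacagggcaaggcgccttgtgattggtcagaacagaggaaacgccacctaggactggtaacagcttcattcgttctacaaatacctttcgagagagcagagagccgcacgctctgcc

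The X-box lay at bases 2 to 15 of the transcribed part for Bbs1, counted with the first transcribed base as 1, and at bases 24 to 37 for Bbs4. For Bbs7 it lay upstream, from base -121 to base -108. An X-box was found in 3 of the 10 promoters and in 1.88% of all 32851 RefSeq promoters. It was also found for 13 of 44 other ciliary genes, those of the further BBS, intraflagellar transport and transition-zone lists. The other ciliary lists followed here were left out of these 44. The string GTTGCC on either strand, a narrower form of the X-box's left part GTNNCC, was found in 3 of the 10 and in 12.5% of all promoters. It lay inside the X-box of Bbs1 and of Bbs7, and without one in Bbs5. The X-box of Bbs4 begins with GTCGCC and is not counted there. The cAMP response element was found in Mkks alone of the 10, and in 1.79% of all promoters. The E-box CACGTG was found in Bbs7 alone of the 10, and in 7.15% of all promoters. The 4 motifs were picked after the promoters had been read, and a match is a description of the letters.

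The values were FPKM, sequenced fragments scaled for transcript length and for library depth, as the authors deposited them. The depth recovered from the steps between low values was 20.8 M and 18.9 M fragments for Cct7 KD, 22.4 M and 23.3 M fragments for its control, and 54.7 M and 21.2 M fragments for Cct5 KD Ctr. No depth could be recovered for Cct5 KD as deposited. In those 6 libraries the values of each of the 10 genes were whole numbers of fragments over the length of 1 annotated coding transcript, so that their fragments could be read back. The targeted gene Cct7 had 14.4 and 17.8 FPKM in Cct7 KD, against 269 and 280 FPKM in Cct7 KD Ctr. The targeted gene Cct5 had 70.8 and 73.4 FPKM in Cct5 KD, against 368 and 367 FPKM in Cct5 KD Ctr. In 449 and 427 genes the 2 Cct5 KD libraries held exactly 1.125 times the FPKM of the same-numbered Cct7 KD library (relative tolerance 1e-06), and 19881 of 19896 genes held that multiple or more. What a gene held above the multiple is called the remainder. The targeted gene Cct5 is among the 15 genes outside this relation. It had 280 and 271 FPKM in Cct7 KD, against 70.8 and 73.4 FPKM in Cct5 KD, so it has no remainder. The remainder had steps of its own, at 56.1 M and 52.9 M fragments, and 98.9% and 99.1% of the values used were whole at them within 0.05 fragments. The multiple made up 71.3% of the summed FPKM of each Cct5 KD library. The Cct5 KD libraries are therefore not an independent measurement, and so the remainder is given beside them. The 8 pluripotency markers summed to 561 and 560.0 FPKM in Cct7 KD, against 2714 and 2758 FPKM in Cct7 KD Ctr, and 8 of 8 fell. Of 5 trophoblast markers tested, 3 rose (Krt18, Krt8 and Hand1) and 2 fell (Tfap2c and Eomes), and the call of Hand1 was lost under median-of-ratios scaling. Krt8 averaged 106 FPKM in Cct7 KD, against 9.03 FPKM in Cct7 KD Ctr, and Krt18 averaged 101 FPKM in Cct7 KD, against 16.0 FPKM in Cct7 KD Ctr. Tfap2c averaged 11.01 FPKM in Cct7 KD, against 26.6 FPKM in Cct7 KD Ctr. Cdx2, which defines that lineage, averaged 0.177 FPKM in Cct7 KD, against 0.0379 FPKM in Cct7 KD Ctr, where 1 library was at 0. The 8 trophoblast markers together summed to 219 and 222 FPKM in Cct7 KD, against 54.7 and 55.0 FPKM in Cct7 KD Ctr. Without Krt8 and Krt18 the other 6 summed to 13.8 and 14.6 FPKM in Cct7 KD, against 30.4 and 29.3 FPKM in Cct7 KD Ctr. The 6 fibroblast markers listed, of 8, summed to 13.5 and 14.3 FPKM in Cct7 KD, against 10.8 and 11.7 FPKM in Cct7 KD Ctr. Of the 3 tested, Pdgfrb and Pdgfra rose and Thy1 fell, with either scaling. The 8 primitive endoderm markers summed to 15.5 and 16.4 FPKM in Cct7 KD, against 13.7 and 13.4 FPKM in Cct7 KD Ctr. Of the 4 tested, Pdgfra, Gata6 and Dab2 rose and Lama1 fell, and the call of Dab2 was lost under median-of-ratios scaling. Lama1, the highest of the 8, averaged 5.87 FPKM in Cct7 KD, against 8.25 FPKM in Cct7 KD Ctr. Gata6 averaged 2.10 FPKM in Cct7 KD, against 0.717 FPKM in Cct7 KD Ctr. The part of these marker changes in the changes of the BBS genes was not tested. In bulk RNA, a change in which cells are present and a change in RNA per cell cannot be told apart. Nothing states that replicates are separate cultures, so p-values measure the spread between libraries alone.

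In Cct7 KD the BBS genes moved in both directions. Of the 10, 6 rose (Ttc8, Mkks, Bbs1, Bbs7, Bbs12 and Bbs5), 2 fell (Bbs2 and Bbs4), and Bbs9 and Bbs10 did not pass limma's test at a Benjamini-Hochberg adjusted p of 0.05. Among all 13588 genes tested, 49.3% rose and 32.0% fell, so the counts of the 10 are close to those of the transcriptome. The median change of the 10 was 0.35 on the log2(FPKM + 1) scale, against 0.15 over all genes tested. Median-of-ratios scaling, which aims to set the typical gene to no change, moved the median of all genes by -0.22. It left 5 rises and 2 falls among the 10, with 37.1% of all genes higher and 44.0% lower. Bbs5 no longer passed after that scaling. Bbs1, counted among the rises, was tested only because its Cct7 KD libraries lifted its mean over the filter of 1 FPKM. Ttc8 alone of the 10 changed at least 2-fold on the log2(FPKM + 1) scale. With 0.1 FPKM added in place of 1, 3 of the 10 rose by at least 2-fold as deposited.

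**Figure D1:**
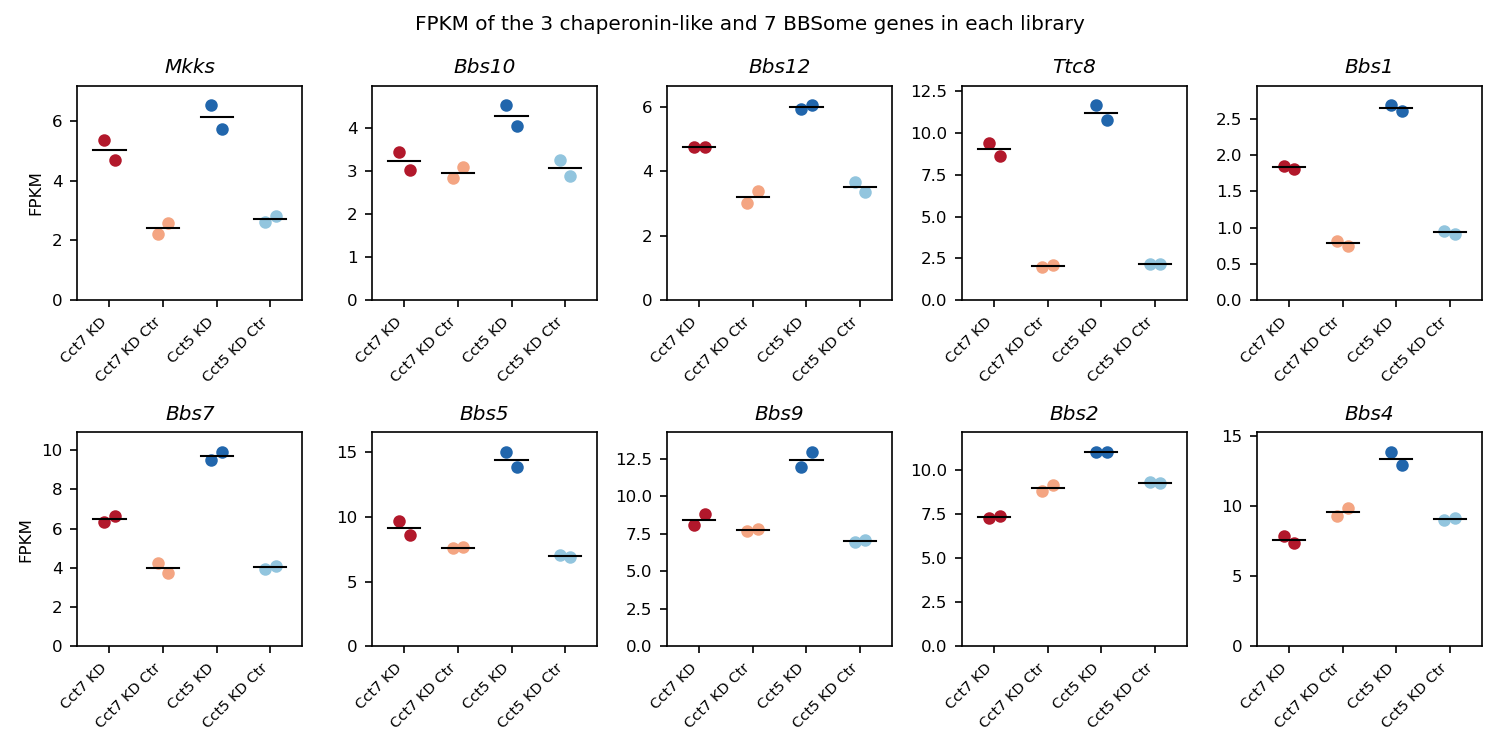
FPKM of each of the 10 genes (vertical axis) in the 2 libraries of each of the 4 groups (horizontal axis), with points for libraries and a black line for the mean of the 2. Ttc8 averaged 9.04 FPKM in Cct7 KD, against 2.03 FPKM in Cct7 KD Ctr, while Bbs2 and Bbs4 lay lower in Cct7 KD than in its control and, as deposited, higher in Cct5 KD than in its control, which turns after median-of-ratios scaling.

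Mkks encodes the chaperonin-like protein first known from McKusick-Kaufman syndrome and lies at chr2:136873780-136891389 on the minus strand (GRCm38, GENCODE). It had 5.35 and 4.70 FPKM in Cct7 KD, against 2.21 and 2.59 FPKM in Cct7 KD Ctr. Both knockdown libraries lay above both controls, and the mean was 2.09-fold as high. Its change was 0.82 ± 0.09 (log2 ± SE, adjusted p = 0.000458, limma), and 18.5% of all genes tested rose by at least as much. The values stand for 353 and 282 fragments in Cct7 KD, against 157 and 192 fragments in Cct7 KD Ctr. Mkks shares a start region with Slx4ip on the other strand, with 171 bases between the starts and 172 exonic bases in common. Slx4ip had 5.94 and 5.56 FPKM in Cct7 KD, against 6.41 and 6.47 FPKM in Cct7 KD Ctr (log2 change -0.14, adjusted p = 0.0649, limma). The libraries kept strand, but no source says whether the counting used it, and 2 further gene models overlap Mkks on its own strand, so that its value is uncertain to that extent.

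Bbs12, whose protein is found in a complex with MKKS, BBS10 and CCT, lies at chr3:37312554-37321453 on the plus strand. It had 4.75 and 4.76 FPKM in Cct7 KD, against 3.01 and 3.38 FPKM in Cct7 KD Ctr. The groups did not overlap, and the change was 0.46 ± 0.07 (log2 ± SE, adjusted p = 0.00182, limma). Its divergent neighbour Cetn4, a centrin gene whose start lies 154 bases away and which shares 32 exonic bases with it, had 2.16 and 2.08 FPKM in Cct7 KD, against 0.594 and 0.641 FPKM in Cct7 KD Ctr (log2 change 0.95, adjusted p = 0.000168, limma). How far the shared bases add to either value was not tested.

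Bbs10, the chaperonin-like protein most often mutated in the syndrome, lies at chr10:111298679-111301727 on the plus strand. It had 3.44 and 3.01 FPKM in Cct7 KD, against 2.84 and 3.08 FPKM in Cct7 KD Ctr. The groups overlapped, and the change of 0.09 ± 0.08 did not pass the test (log2 ± SE, adjusted p = 0.339, limma). With 156 to 197 fragments in each of these 4 libraries, the counting error alone was 7.12% to 8.01% of a value. The 3 chaperonin-like genes summed to 13.5 and 12.5 FPKM in Cct7 KD, against 8.05 and 9.05 FPKM in Cct7 KD Ctr. The median of 8 CCT subunits, leaving out the low Cct6b, stood at 19.98 and 21.3 times that sum in Cct7 KD, against 39.5 and 35.95 times in Cct7 KD Ctr. Over all 9 subunits it stood at 19.3 and 20.9 times in Cct7 KD, against 39.3 and 35.6 times in Cct7 KD Ctr. Of the 9 CCT subunit genes tested, 7 fell, Cct8 rose and Tcp1 did not pass, and all 9 fell after median-of-ratios scaling. Both counts of falls include Cct7, the target of the hairpin. Over all genes tested, 32.0% fell as deposited and 44.0% after that scaling.

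Ttc8, also called Bbs8, is a BBSome subunit built of tetratricopeptide repeats and lies at chr12:98920574-98983238 on the plus strand. It had 9.43 and 8.65 FPKM in Cct7 KD, against 1.99 and 2.08 FPKM in Cct7 KD Ctr. The groups lay far apart, with a mean 4.45-fold as high in Cct7 KD. The change was 1.73 ± 0.07 (log2 ± SE, adjusted p = 9.71e-06, limma), and 3.42% of all genes tested rose by at least as much. It rests on 445 and 371 fragments in Cct7 KD, against 101 and 110 fragments in Cct7 KD Ctr. The promoter shown above held none of the 4 motifs. Leaving out any 1 library kept the rise between 1.67 and 1.78.

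Bbs1, the subunit that binds the small GTPase ARL6 and so brings the complex to membranes, lies at chr19:4886878-4906628 on the minus strand. It had 1.86 and 1.81 FPKM in Cct7 KD, against 0.814 and 0.750 FPKM in Cct7 KD Ctr, with no overlap. The mean was 2.35-fold as high, and the change was 0.67 ± 0.08 (log2 ± SE, adjusted p = 0.000707, limma). Both control libraries lay under 1 FPKM. Bbs1 thus passed the filter of 1 FPKM, taken on the mean of the libraries compared, only through Cct7 KD, where it was high. The fold on the log2(FPKM + 1) scale is smaller than the fold of the means because the gene is low. Bbs7, a beta-propeller subunit of the assembly core, lies at chr3:36573142-36613477 on the minus strand. It had 6.32 and 6.62 FPKM in Cct7 KD, against 4.23 and 3.74 FPKM in Cct7 KD Ctr. Its groups did not overlap either, and the change was 0.59 ± 0.07 (log2 ± SE, adjusted p = 0.000667, limma).

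Bbs2 and Bbs4 went the other way. Bbs2, a second beta-propeller subunit of the core, lies at chr8:94067954-94098928 on the minus strand. It had 7.27 and 7.40 FPKM in Cct7 KD, against 8.83 and 9.13 FPKM in Cct7 KD Ctr. Both knockdown libraries lay below both controls, and Bbs2 fell by 0.26 ± 0.05 (log2 ± SE, adjusted p = 0.00361, limma). Bbs4, a tetratricopeptide-repeat subunit that binds the centriolar satellite protein PCM1, lies at chr9:59321990-59353508 on the minus strand. It had 7.87 and 7.34 FPKM in Cct7 KD, against 9.29 and 9.83 FPKM in Cct7 KD Ctr, without overlap. Bbs4 fell by 0.30 ± 0.06 (log2 ± SE, adjusted p = 0.00443, limma). It shares 194 exonic bases with Adpgk on the other strand, which had 48.9 and 49.0 FPKM in Cct7 KD, against 50.5 and 49.4 FPKM in Cct7 KD Ctr. The 3 promoters with an X-box thus belong to 2 genes that rose, Bbs1 and Bbs7, and to 1 that fell, Bbs4.

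Bbs5, the subunit that binds phosphoinositide lipids through pleckstrin-homology domains, lies at chr2:69647171-69667571 on the plus strand. It had 9.70 and 8.62 FPKM in Cct7 KD, against 7.59 and 7.68 FPKM in Cct7 KD Ctr. The groups did not overlap, and the change was 0.23 ± 0.07 (log2 ± SE, adjusted p = 0.0190, limma). This call was lost without the first Cct7 KD Ctr library (log2 change 0.22) and without the first Cct7 KD library (log2 change 0.16). Bbs9, the third beta-propeller subunit of the core, lies at chr9:22475715-22888280 on the plus strand. It had 8.07 and 8.80 FPKM in Cct7 KD, against 7.68 and 7.79 FPKM in Cct7 KD Ctr. The ranges did not overlap, but the change of 0.11 ± 0.06 did not pass the test (log2 ± SE, adjusted p = 0.126, limma). Of the 3 core subunits, Bbs7 thus rose, Bbs2 fell and Bbs9 did not pass.

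**Figure D2:**
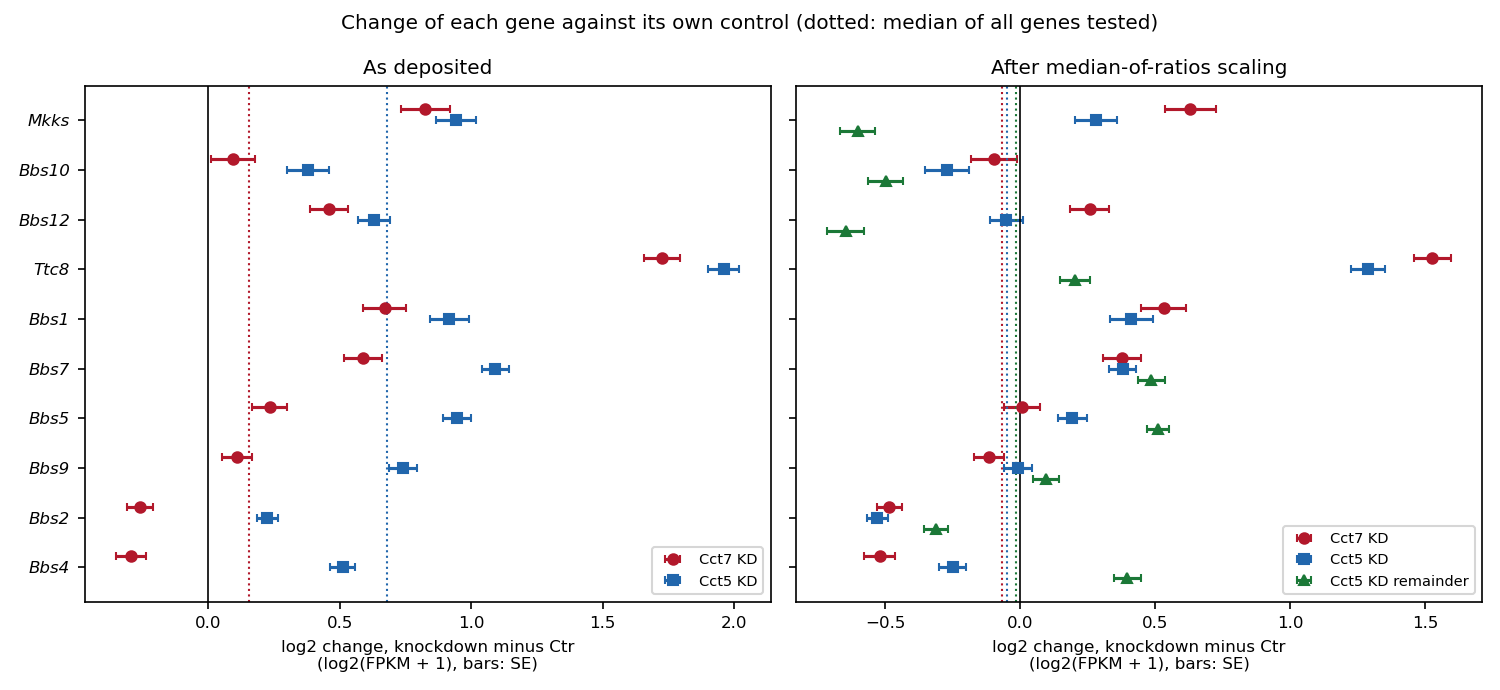
Change of each of the 10 genes (rows) against its own control on the log2(FPKM + 1) scale (horizontal axis, bars show the SE), with the values as deposited on the left and after median-of-ratios scaling on the right, where the remainder of Cct5 KD is added. Dotted lines mark the median of all genes tested: in Cct7 KD it lies at 0.15 as deposited and at -0.07 after scaling, and Ttc8 lies far to the right of it on both sides.

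Within the BBSome, Ttc8 changed its place among the subunits. By FPKM, which is per length, the order of the mean levels in Cct7 KD was Bbs5, Ttc8, Bbs9, Bbs4, Bbs2, Bbs7 and Bbs1. In Cct7 KD Ctr the order was Bbs4, Bbs2, Bbs9, Bbs5, Bbs7, Ttc8 and Bbs1. Ttc8 made up 18.7% and 17.6% of the summed FPKM of the 7 subunits in Cct7 KD, against 4.92% and 5.07% in Cct7 KD Ctr. The ratio of the highest to the lowest subunit was 5.23 and 4.85 in Cct7 KD, against 11.4 and 13.1 in Cct7 KD Ctr. In Cct7 KD the libraries of Bbs5, Ttc8 and Bbs9 overlapped, as did those of Bbs4 and Bbs2, so these neighbours in the order do not differ beyond their spread. Every other neighbouring pair there was separated in its 2 libraries. In Cct7 KD Ctr only Bbs9 (7.68 and 7.79 FPKM) and Bbs5 (7.59 and 7.68 FPKM) met, and all other neighbours were separated.

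In the controls, the last place of Bbs1 depends on the length used for it. The deposited values imply 5602 bases, the length of its longest coding transcript, whereas the next coding transcript has 1841 bases. At that length Bbs1 would average 5.58 FPKM in Cct7 KD, against 2.38 FPKM in Cct7 KD Ctr, above the control level of Ttc8 and, in Cct7 KD, still below Bbs7 at a mean of 6.47 FPKM. The length does not affect the fold of the means between the groups.

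**Figure D3:**
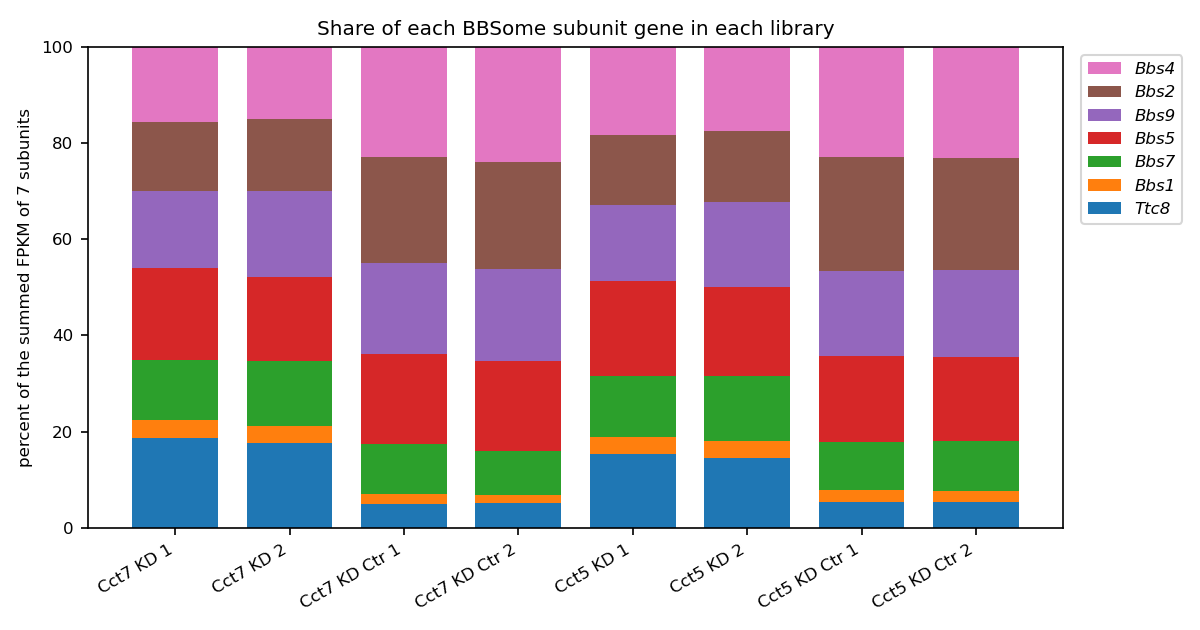
Share of each of the 7 BBSome subunit genes in their summed FPKM (vertical axis, percent) in each of the 8 libraries. Ttc8 held 18.7% and 17.6% in Cct7 KD, against 4.92% and 5.07% in Cct7 KD Ctr. Its share was 15.4% and 14.6% in Cct5 KD, against 5.43% and 5.39% in Cct5 KD Ctr.

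In Cct5 KD as deposited all 10 genes were higher than in Cct5 KD Ctr and passed the test, where 78.0% of the 14179 genes tested were higher and 11.3% lower. The changes on the log2(FPKM + 1) scale ran from 0.22 for Bbs2 to 1.96 for Ttc8, with a median of 0.83, against 0.68 over all genes. Median-of-ratios scaling moved the median of all genes by -0.73. After it, 5 of the 10 were higher (Ttc8, Bbs1, Bbs7, Mkks and Bbs5), 3 were lower (Bbs2, Bbs10 and Bbs4), and Bbs12 and Bbs9 did not pass, with 37.7% of all genes higher and 43.7% lower. The direction in Cct5 KD therefore depends on the scaling for 5 genes, since Bbs2, Bbs4 and Bbs10 turned and passed, and Bbs12 (-0.051) and Bbs9 (-0.0076) turned without passing.

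Ttc8 had 11.7 and 10.8 FPKM in Cct5 KD, against 2.14 and 2.14 FPKM in Cct5 KD Ctr, and its rise kept its direction and passed under both scalings (log2 change 1.96 as deposited and 1.29 scaled). The multiple of Cct7 KD supplied most of that level, since the remainder was 1.05 and 1.03 FPKM, 9.31% of the Cct5 KD mean. Mkks had 6.51 and 5.73 FPKM in Cct5 KD, against 2.60 and 2.80 FPKM in Cct5 KD Ctr, and its remainder was 0.500 and 0.446 FPKM. Bbs12 had 5.94 and 6.05 FPKM in Cct5 KD, against 3.68 and 3.37 FPKM in Cct5 KD Ctr, with a remainder of 0.593 and 0.693 FPKM. For these 3 genes the remainder was at most 10.7% of the Cct5 KD mean. Bbs10 had 4.52 and 4.04 FPKM in Cct5 KD, against 3.24 and 2.88 FPKM in Cct5 KD Ctr, and its remainder was 0.650 and 0.655 FPKM.

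The remainder was larger for most BBSome subunits. Bbs4 had 13.8 and 12.9 FPKM in Cct5 KD, against 9.004 and 9.15 FPKM in Cct5 KD Ctr, and its remainder of 4.98 and 4.63 FPKM was 35.95% of the Cct5 KD mean, the highest share of the 10. Bbs5 had 15.0 and 13.8 FPKM in Cct5 KD, against 7.07 and 6.93 FPKM in Cct5 KD Ctr, with a remainder of 4.09 and 4.12 FPKM. Both genes lay above both controls in both Cct5 KD libraries as deposited, and Bbs4 turned after median-of-ratios scaling. Bbs7 had 9.50 and 9.91 FPKM in Cct5 KD, against 3.94 and 4.10 FPKM in Cct5 KD Ctr, with a remainder of 2.38 and 2.46 FPKM. Bbs9 had 11.9 and 12.9 FPKM in Cct5 KD, against 6.95 and 7.10 FPKM in Cct5 KD Ctr, with a remainder of 2.83 and 3.04 FPKM. Bbs2 had 11.004 and 11.02 FPKM in Cct5 KD, against 9.30 and 9.25 FPKM in Cct5 KD Ctr, with a remainder of 2.82 and 2.70 FPKM. In each of these 3 both knockdown libraries lay above both controls as deposited, where 78.0% of all genes tested were called higher. How many of all genes were separated in this way was not counted. Bbs2 turned after median-of-ratios scaling, as did Bbs9 without passing. Bbs1 had 2.69 and 2.62 FPKM in Cct5 KD, against 0.952 and 0.916 FPKM in Cct5 KD Ctr, with a remainder of 0.599 and 0.574 FPKM. Here too Bbs1 passed the filter of 1 FPKM only through the knockdown libraries.

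**Figure D4:**
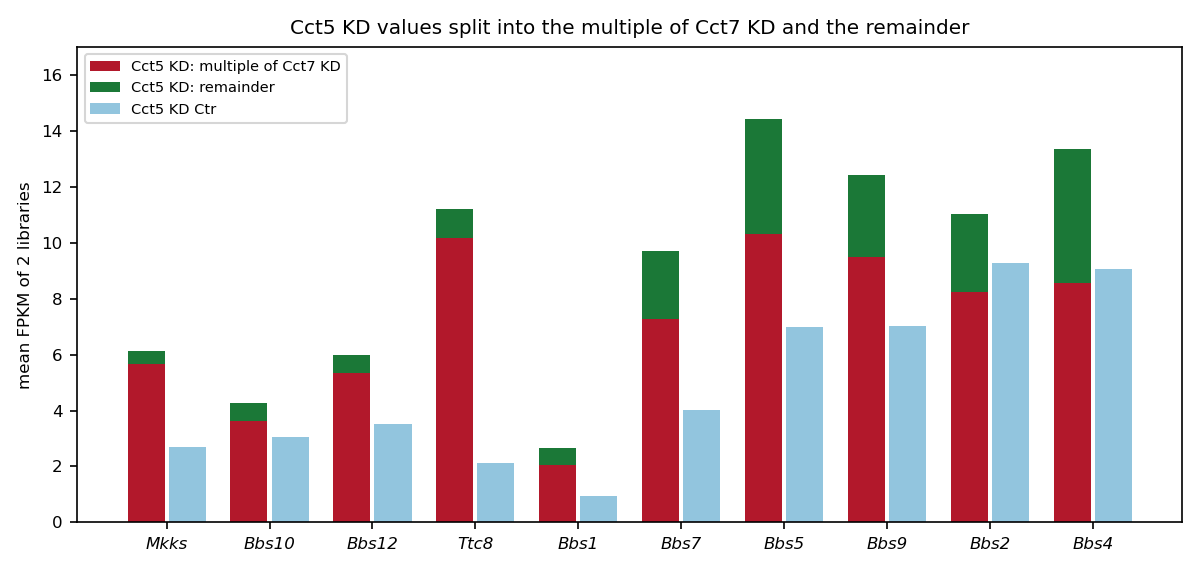
Mean FPKM of 2 libraries (vertical axis) for each of the 10 genes in Cct5 KD, split into the multiple of Cct7 KD (red) and the remainder (green), beside Cct5 KD Ctr (light blue). The remainder made up 35.95% of the Cct5 KD mean for Bbs4, against 7.73% for Mkks and 9.31% for Ttc8.

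Set against Cct5 KD Ctr after scaling by median of ratios, the remainder was lower for the 3 chaperonin-like genes and went both ways among the BBSome subunits. The chaperonin-like genes were lower by 0.65 for Bbs12, 0.60 for Mkks and 0.50 for Bbs10 on the log2 scale. Their remainders were low, at means of 0.643, 0.473 and 0.652 FPKM before scaling. The filter of 1 FPKM took the mean over remainder and control after scaling. Mkks passed it only through the control, and the remainders of Bbs12 and Bbs10 lay near it, so these 3 changes rest on values near the floor. Of the BBSome subunits, Bbs5, Bbs7, Bbs4 and Ttc8 were higher (0.51, 0.49, 0.40 and 0.20), Bbs2 was lower (-0.31), Bbs9 did not pass (0.09, adjusted p = 0.110, limma) and Bbs1 was under the filter on low values. Adjusted p-values of the 8 called genes were 4.31e-05 to 0.0144 (limma), with 41.6% of the 11688 genes tested higher and 43.3% lower. The steps show whole fragments in the remainder, as in the 6 libraries with a depth, and no source used here says what it measures.

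The difference between the changes in Cct5 KD and in Cct7 KD was tested over all 8 libraries, of which those of the knockdowns share values. It passed for 7 of the 10 genes as deposited, each with the larger change in Cct5 KD, and 83.8% of all 13840 genes passed. After median-of-ratios scaling it passed for 3 of the 10, with 24.0% of all genes called. These were Bbs4, whose change was more positive in Cct5 KD (difference 0.27, adjusted p = 0.0468, limma), and Bbs12 and Ttc8, whose changes were less positive there (-0.32 and -0.30, adjusted p = 0.0393 and 0.0491, limma). Scaled to a common total, the difference for Bbs4 no longer passed (0.21, adjusted p = 0.0577, limma). The control groups, set across the 2 tables, differed little for the 10 genes. Of the 9 that passed the filter none was called by limma (log2 changes of Cct7 KD Ctr minus Cct5 KD Ctr between -0.12 and 0.12), 1 of them, Bbs9, had an unadjusted p under 0.05, and 0 of 12762 genes were called, with 2296 at an unadjusted p under 0.05.

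The other genes of the pathway were also mixed in Cct7 KD. Among 14 further BBS genes 10 rose and 3 fell, with a median change of 0.35, against 0.15 over all genes tested, of which 49.3% rose and 32.0% fell. After median-of-ratios scaling the counts were 6 and 4, with 37.1% of all genes higher and 44.0% lower. The counts of the lists that follow stand against these same shares. Bbip1, the small BBSome subunit outside the 10, had 14.9 and 13.5 FPKM in Cct7 KD, against 5.89 and 6.19 FPKM in Cct7 KD Ctr (log2 change 1.11, adjusted p = 2.98e-05, limma). Both its knockdown libraries lay above both controls, with a smaller change than that of Ttc8 (1.73). Mks1, a transition-zone gene also mutated in the syndrome, had 6.05 and 6.25 FPKM in Cct7 KD, against 17.6 and 16.9 FPKM in Cct7 KD Ctr, and fell by 1.35 on the log2 scale. The other 2 that fell were Ift27 (-0.22) and Lztfl1 (-0.19), an inhibitor of BBSome entry into cilia. Of 8 partners of the BBSome 5 rose and 2 fell (4 and 3 after scaling), among them Rab8a (0.70), the GTPase of ciliary membrane delivery, and Inpp5e (0.89), a ciliary phosphoinositide phosphatase, which rose, and the satellite proteins Cep131 (-0.73) and Pcm1 (-0.34), which fell.

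Of the intraflagellar transport trains that the BBSome rides on, the anterograde IFT-B list had 10 rises and 4 falls among 17 tested (9 and 6 after scaling), near the shares over all genes. The rises with the smallest p were those of Hspb11 (1.35), Ift74 (1.18) and Ift80 (1.06). The retrograde IFT-A list had 3 rises and 2 falls among 7 with either scaling. Ttc21b (0.79), Ift43 (0.75) and Ift122 (0.62) rose, and Tulp3 (-0.29), which links the complex to membrane receptors, and Wdr35 (-0.11) fell. The ciliary motors had 5 rises and 3 falls among 8 (3 and 3 after scaling), with Kif3b higher (0.69). The dynein-2 genes went both ways. Wdr34 (-1.24), Tctex1d2 (-0.56) and Dync2li1 (-0.45) fell, while Dync2h1 and Wdr60 rose with either scaling. Dync2h1 averaged 3.57 FPKM in Cct7 KD, against 1.65 FPKM in Cct7 KD Ctr. Wdr60 averaged 5.73 FPKM in Cct7 KD, against 3.85 FPKM in Cct7 KD Ctr. The transition zone had 8 rises and 6 falls among 18 (5 and 8 after scaling), with Ahi1 higher (1.21) and Tmem231 lower (-1.27). The medians of these lists on the deposited scale were 0.37 for IFT-B, 0.17 for IFT-A, 0.24 for the motors and 0.00062 for the transition zone.

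Hedgehog signalling, which depends on the cilium, had 6 rises and 4 falls among 12 tested (6 and 5 after scaling), with a median of 0.31. Among those that fell were Gli1, Gli2 and Ptch1, of which Gli1 and Ptch1 are standard target genes of the pathway. Gli1 had 0.652 and 0.600 FPKM in Cct7 KD, against 4.61 and 4.02 FPKM in Cct7 KD Ctr. Gli2 had 1.41 and 1.45 FPKM in Cct7 KD, against 8.18 and 7.92 FPKM in Cct7 KD Ctr. Cdon, a co-receptor, had 14.1 and 13.9 FPKM in Cct7 KD, against 4.32 and 4.25 FPKM in Cct7 KD Ctr. Among the RFX factors, Rfx3 (0.84) and Rfx7 (0.45) rose, Rfx2 (-1.09) and Rfx1 fell, and Rfx5 did not pass, though it was lower after median-of-ratios scaling (-0.27). Of 9 motile-cilium genes tested 2 rose and 6 fell (1 and 6 after scaling), against 49.3% and 32.0% of all genes. The rises were those of the radial spoke gene Rsph9, which had 1.79 and 2.58 FPKM in Cct7 KD, against 0.278 and 0.444 FPKM in Cct7 KD Ctr, and of Dnaic2 (0.39), which did not pass after scaling. Another radial spoke gene, Rsph1 (-1.13), and Hydin (-0.85), of the axoneme's central pair, fell. Tekt1, a tektin of the axoneme, also fell and had 1.96 and 1.54 FPKM in Cct7 KD, against 12.1 and 11.9 FPKM in Cct7 KD Ctr.

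**Figure D5:**
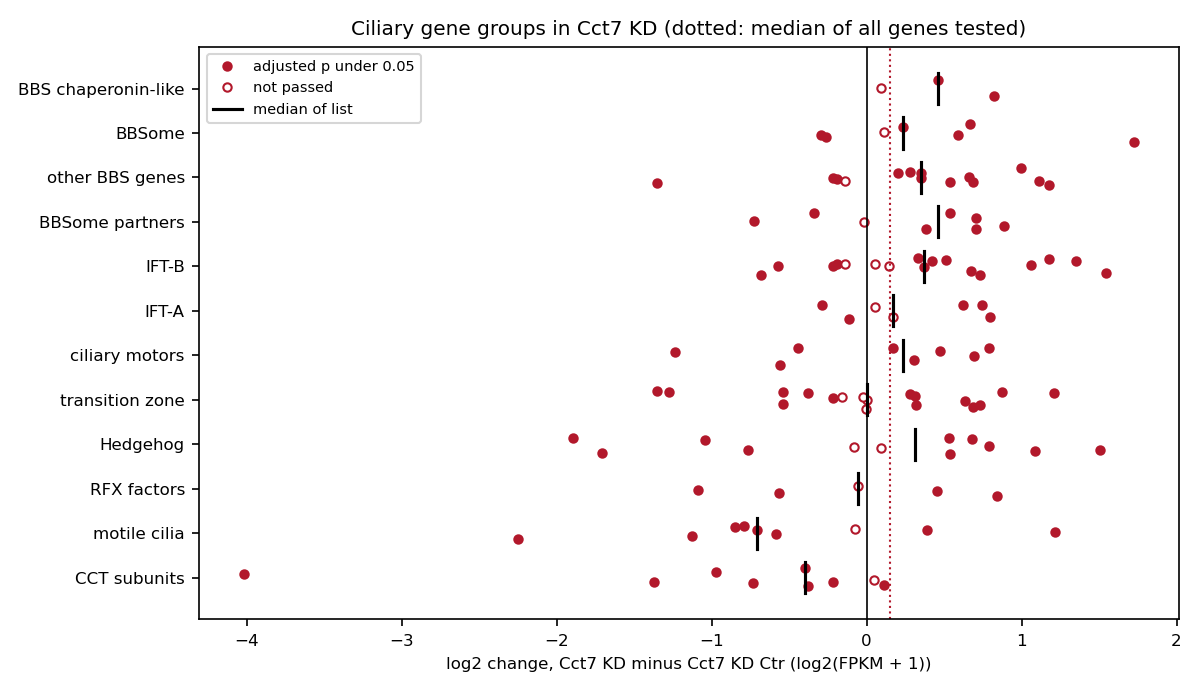
Change in Cct7 KD against Cct7 KD Ctr on the log2(FPKM + 1) scale (horizontal axis) for every tested gene of 12 lists (rows), with filled points for genes that passed the test, open points for those that did not, black bars for the median of a list and a dotted line for the median of all genes tested (0.15). The BBSome row runs from -0.30 for Bbs4 to 1.73 for Ttc8, and the motile-cilium row has its median at -0.71.

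The genes whose levels followed those of a BBS gene most closely were looked up over the 6 libraries other than Cct5 KD, among 13352 genes, by Pearson's r of log2(FPKM + 1). These 6 points fall into 2 Cct7 KD libraries and 4 controls, so that r is given as a description. For Mkks they were Dkc1 (0.999), Zfand4 (0.998) and Ttll1 (0.998), and for Bbs12 Ppp1r11 (0.996), Tmem126a (0.996) and Asb7 (0.996). For Bbs10 they were Wdr61 (0.976), Ndufs4 (0.974) and Gm40848 (0.945). For Ttc8, the subunit with the largest change, they were Ap5m1, Rhog and Lrrc58, each at 1.00 after rounding. For Bbs9, the subunit with the smallest change, they were Pip4p2 (0.989), Dgkz (0.988) and Zfyve21 (0.987). Rhog, a small GTPase, had 39.3 and 35.4 FPKM in Cct7 KD, against 8.29 and 8.29 FPKM in Cct7 KD Ctr.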

How the data were processed

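Per the labels' protocols, poly(A) RNA went into strand-specific libraries read as paired ends. The authors deposited FPKM per gene, 1 table for each knockdown with its control, made with HTSeq on mm10 per the submitters' processing notes. The aligner, the annotation and all versions are not stated in those sources. Gene IDs listed more than once (8 in the Cct5 table, 6 in the Cct7 table) were left out. Symbols and coordinates came from GENCODE on GRCm38, and promoters from RefSeq.

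Using limma 3.58.1 in R 4.3.3 (eBayes with trend), genes averaging 1 FPKM or more in a comparison were fitted on log2(FPKM + 1) of the deposited values, whose fold changes understate those of low genes. P-values were adjusted by Benjamini-Hochberg over all genes, at 0.05. Each knockdown was fitted with its own control. The self-test on simulated data preceded the fits. The remainder was formed by taking 1.125 times the same-numbered Cct7 KD value away from each Cct5 KD value. Depth came from the steps between low values in genes with 1 transcript, whole within 0.05 fragments, and fragments per gene give counting error only.

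The genes, lists and tests were chosen with earlier results of these data known. All 10 genes are named, and from each list up to 3 tested genes with the smallest p in Cct7 KD, plus exceptions to its direction where there were 3 or fewer. Gli1, Rfx1, Rfx5, Cct8, Tcp1, Dync2h1, Wdr60, the neighbours Slx4ip, Cetn4 and Adpgk, and the cell type markers were named after their values were seen. The values of 1 gene of the Hedgehog list are not reported here. Alternatives were 2 other scalings, a pseudocount of 0.1, no filter, a minimum fold of 2, all 8 libraries in 1 fit, a replicate block, each library left out and the remainder. The length of Bbs1 was an alternative chosen after seeing the data. Same-numbered libraries did not deviate together (r = -0.04 for Cct7 and -0.01 for Cct5), so the numbers were not used as pairs.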

Additional observations from a re-analysis of the deposited data

Results flagged for a closer look

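The change in Cct5 KD was larger than the change in Cct7 KD for 7 of the 10 genes on the log2(FPKM + 1) scale, by limma's test of the difference. Over all 13840 genes tested, 83.8% passed that test, so the 7 do not stand out. The differences were 0.81 for Bbs4, 0.71 for Bbs5, 0.63 for Bbs9, 0.50 for Bbs7, 0.48 for Bbs2, 0.25 for Bbs1 and 0.23 for Ttc8. Leaving out 1 library at a time, the call was lost for Bbs1 in 6 of 8 fits (difference 0.22 to 0.26 there) and for Ttc8 in 5 of 8 fits (0.18 to 0.23). The summed FPKM was 749001 and 747293 in the Cct5 KD libraries, against 496507 and 497663 in Cct5 KD Ctr, and the median difference over all genes was 0.49. For Bbs4 alone of these 7 the difference also passed with the same sign after median-of-ratios scaling, at 0.27, but it did not pass at a common total. The Cct5 KD values contain those of Cct7 KD, and their part in these differences was not tested beyond the remainder.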

How the results depend on the processing

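In Cct7 KD, the changes of the 10 genes kept direction and call under the alternatives in 94 instances, lost the call in 3 (all Bbs5), gained it in 1 (Bbs9 at a common total) and turned in 2. A minimum fold of 2 left 1 higher and 0 lower, and Bbs10 (-0.10) and Bbs9 (-0.11) turned sign under median-of-ratios scaling without passing. With a pseudocount of 0.1 that minimum fold left 3 higher in Cct7 KD and 5 higher in Cct5 KD. In Cct5 KD the count of higher genes was 5 after median-of-ratios scaling, 6 at a common total, 4 in the remainder and 2 with the minimum fold, and the count of lower genes 3, 1 and 4 under the first 3 of these. The log2 changes that turned there were Mkks (-0.60), Bbs12 (-0.65), Bbs10 (-0.50) and Bbs2 (-0.31) in the remainder, Bbs10 (-0.27), Bbs12 (-0.051), Bbs2 (-0.53), Bbs4 (-0.25) and Bbs9 (-0.0076) after median-of-ratios scaling, and Bbs10 (-0.082), Bbs2 (-0.31) and Bbs4 (-0.027) at a common total. The difference of the changes passed for 3 genes after median-of-ratios scaling (1 positive and 2 negative) and for 3 at a common total (0 positive and 3 negative). The genes were thus not the same under the 2 scalings. With the minimum fold the difference passed for 0 genes. It turned after median-of-ratios scaling for Mkks (-0.38), Bbs10 (-0.18), Bbs12 (-0.32), Bbs1 (-0.17), Bbs2 (-0.049), Bbs7 (-0.020) and Ttc8 (-0.30), and at a common total for the same genes (-0.43, -0.23, -0.38, -0.21, -0.10, -0.073 and -0.36 in that order). Each scaling moves all genes of a library by the same factor.

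Over all genes, the minimum fold left 2734 calls in Cct7 KD, 4724 in Cct5 KD and 515 for the difference, for which the scalings left 3289 (median-of-ratios) and 4125 (common total). Between the control groups a common total gave 20 calls, and leaving out 1 library gave 0 to 103. Leaving out 1 library, the difference passed for 5 to 7 of the 10 genes. With the replicate number as a block, the counts were 6 higher and 2 lower in Cct7 KD, 10 and 0 in Cct5 KD, 8 for the difference and 0 for the controls, and 10968, 12740, 11811 and 0 over all genes. The cause of the changes was not tested. Depth limits the low genes most: the counting error of Bbs1 was 10.1% in a Cct7 KD Ctr library.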
